A study of Mus musculus with 64 samples.

Results

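The 30 genes described here make, move and store cholesterol: 19 encode steps of cholesterol synthesis and 11 encode uptake, movement inside the cell, efflux or esterification. They were chosen by name, with no measured value in the rule, and all 30 were found among the 19521 genes of the deposited tables. The synthesis genes comprise 7 of the mevalonate steps (Acat2, Hmgcs1, Mvk, Pmvk, Mvd, Idi1, Fdps) and 12 of the squalene and sterol steps (Fdft1, Sqle, Lss, Cyp51, Tm7sf2, Lbr, Msmo1, Nsdhl, Hsd17b7, Ebp, Sc5d, Dhcr7). The 11 others, called handling genes below, comprise 4 of uptake and movement (Stard4, Mylip, Npc1, Npc2), 4 of efflux (Abca1, Abcg1, Abcg5, Abcg8) and 3 of esterification (Soat1, Soat2, Lcat).

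The mice were C57BL/6J males, either wild-type (labelled CTRL) or Pklr-/- (labelled KO), with 8 mice of each genotype. From the age of 8 weeks, 4 mice of each genotype stayed on chow and 4 were given a high-sucrose diet (HSD) for 8 weeks, and tissues were taken at 16 weeks. RNA was sequenced from 4 tissues, liver, white adipose (WAT), heart and muscle, in 16 groups of 4 libraries. Pklr encodes the pyruvate kinase of liver and red blood cells, and the series looks for agents against it for non-alcoholic fatty liver. The comparisons ask how genotype and diet affected each tissue.

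Total estimated counts were 5724366 to 12188623 per library, and the mitochondrial share ranged from 6.23 to 11.1% in liver and WAT, from 25.2 to 31% in muscle and from 36.4 to 48.5% in heart. Pklr in liver spanned 61.6 to 141 TPM (a length-scaled share of transcripts) in CTRL on chow and 147 to 268 TPM in labelled KO on chow, while on HSD the ranges were 154 to 263 TPM and 314 to 459 TPM. A loss of the transcript would give lower values, and the levels were not lower in labelled KO. The design of the allele is not known here, and whether it keeps the transcript was not tested. The mice are called labelled KO throughout. The defining markers of each tissue were highest in that tissue. In WAT the hepatocyte marker Alb had a median of 26.8 TPM and reached 272 TPM in replicate 3 of labelled KO on chow. No 2 libraries held identical values. The members that pass a diet or genotype test below are protein-coding genes placed in GRCm38 at these positions: Sc5d (chr9:42251595-42264256, minus strand), Lcat (chr8:105939551-105943382, minus strand), Acat2 (chr17:12942890-12960747, minus strand), Tm7sf2 (chr19:6062821-6068373, minus strand), Npc2 (chr12:84754562-84773152, minus strand), Hmgcs1 (chr13:119690379-119708260, plus strand), Fdft1 (chr14:63145150-63179578, minus strand) and Abca1 (chr4:53030787-53159895, minus strand).

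Cells build cholesterol from acetyl-CoA through mevalonate, the isoprenoids, squalene and lanosterol, or take it up from lipoproteins. The transcription factor SREBP-2 is released to the nucleus when the endoplasmic reticulum holds little cholesterol, and it activates most synthesis genes together through sterol regulatory elements, with NF-Y and Sp1 bound nearby. The nuclear receptor LXR senses oxysterols and activates efflux genes such as Abca1, Abcg1, Abcg5 and Abcg8, and Mylip, whose product marks lipoprotein receptors for destruction. The liver is the main organ that makes cholesterol and sends it to bile, while adipocytes store it.

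Promoter sequences are shown for members whose levels the results below turn on. RefSeq promoters of build GRCm38.p6, each from 250 bases before to 50 bases after a gene start, were matched for 23 of the 30 members. The entries for Fdps, Fdft1, Sqle, Stard4, Npc1, Abcg1 and Soat2 were missing. Both strands were searched for the sterol regulatory element consensus TCACNCCAC, the NF-Y box CCAAT and the GC box GGGCGG, which do not overlap in the 5 windows shown. The 150 bases before the start are printed 5' to 3' on the gene's strand, with each match on either strand in capitals. None of the 5 windows overlaps an annotated exon, and the capitals that end the Sc5d window belong to a GC box that runs past the start.
Hmgcs1, chr13:119690201-119690350, plus strand: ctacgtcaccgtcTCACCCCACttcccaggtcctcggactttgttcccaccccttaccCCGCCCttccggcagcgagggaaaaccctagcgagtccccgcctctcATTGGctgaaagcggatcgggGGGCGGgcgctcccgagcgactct
Mvk, chr5:114444119-114444268, plus strand: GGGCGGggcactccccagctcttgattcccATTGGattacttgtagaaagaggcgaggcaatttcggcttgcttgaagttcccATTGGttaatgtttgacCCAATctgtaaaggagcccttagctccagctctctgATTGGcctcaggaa
Sc5d, chr9:42264301-42264450, minus strand: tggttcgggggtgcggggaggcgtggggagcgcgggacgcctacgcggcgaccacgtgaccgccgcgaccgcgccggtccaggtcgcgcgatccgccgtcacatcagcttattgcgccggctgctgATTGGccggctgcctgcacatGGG
Abca1, chr4:53159896-53160045, minus strand: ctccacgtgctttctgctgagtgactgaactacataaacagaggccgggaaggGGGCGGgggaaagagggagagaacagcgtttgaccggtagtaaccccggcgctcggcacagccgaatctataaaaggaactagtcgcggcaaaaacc
Lcat, chr8:105943403-105943552, minus strand: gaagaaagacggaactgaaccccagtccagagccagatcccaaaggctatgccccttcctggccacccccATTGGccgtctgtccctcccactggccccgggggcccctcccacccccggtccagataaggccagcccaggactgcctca

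A CCAAT match was present in a promoter of 15 of the 16 matched synthesis genes (93.8%) and 6 of the 7 matched handling genes (85.7%), against 41.1% of 27025 genes in the RefSeq table. The GC box was found for 15 of 16 synthesis genes (93.8%) and 4 of 7 handling genes (57.1%), against 38.2% of all genes. The strict sterol element consensus was found only for Hmgcs1 among the 23 members, against 1.44% of all genes. In the printed windows Hmgcs1 (hydroxymethylglutaryl-CoA synthase) has all 3 motifs, Mvk (mevalonate kinase) has CCAAT on both strands, and Abca1 has a GC box alone. These matches are descriptions of the letters, not of binding.

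In CTRL mice on chow, liver had the highest mean TPM of 13 of the 19 synthesis genes. Lbr was highest in WAT. Mvd had its highest mean in muscle, where it did not differ from liver by the test given below (-0.29, edgeR adjusted p 0.49). Acat2, Hmgcs1, Mvk and Pmvk had their highest mean TPM in WAT, but their direction against liver depended on the scaling. TPM is a level per transcript length, so it can be compared between genes. Fdps, farnesyl pyrophosphate synthase and the most abundant mevalonate-step member in liver, measured 220, 154, 457 and 330 TPM in the 4 livers, against 22.7, 44.6, 71.4 and 60.5 TPM in WAT. In heart it measured 11.1, 11, 8.69 and 11.1 TPM, and in muscle 22.1, 21.5, 17.7 and 18.6 TPM. Fdps shares 1124 exonic bases with the protein-coding gene Gm43738 on the same strand, which makes its level uncertain. Its liver libraries did not overlap those of any other tissue, and they differed more among themselves than the libraries of heart or muscle did.

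Sc5d (sterol C5-desaturase, the most abundant of the sterol steps in liver) was likewise highest there, at 124, 145, 224 and 159 TPM, against 49.9, 46.6, 63.1 and 62.9 TPM in WAT. Heart libraries lay between 5.47 and 6.49 TPM, muscle libraries between 5.65 and 8.1 TPM. Tm7sf2, a sterol C14-reductase, had a mean of 88.6 ± 26.5 TPM in liver (SD, n = 4) and 6.58 ± 4.16 TPM in WAT, and was at most 1.45 TPM in every heart and muscle library of CTRL on chow. Lbr, the lamin B receptor that carries a second C14-reductase, ran the other way, with 3.13 TPM in liver and 10.2 TPM in WAT, and its liver values overlapped those of no WAT library.

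The handling genes of each role divided between liver and WAT. Both subunits of the biliary sterol exporter, Abcg5 and Abcg8, and Lcat, the plasma enzyme that esterifies cholesterol on lipoproteins, were liver genes. Abcg8 measured 24.1, 28.2, 37.2 and 25.9 TPM in liver and at most 0.39 TPM in WAT. Lcat measured 417, 362, 243 and 282 TPM in liver and at most 2.93 TPM in WAT. In heart no count was assigned to Abcg5 or Abcg8 in the 4 libraries, so that with a floor of 3 counts over the group liver was at least 854-fold higher for Abcg5 and at least 1350-fold higher for Abcg8. Muscle had 0 counts of Abcg5 (liver at least 705-fold higher) and 1 count of Abcg8.

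WAT held the highest levels of 4 handling genes, Npc2, Mylip, Abcg1 and Soat1. Npc2, a soluble carrier that brings cholesterol out of the lysosome, measured 225, 222, 225 and 238 TPM in WAT, against 21.6, 21.8, 23.8 and 15.4 TPM in liver. Mylip, Abcg1 (efflux to larger lipoproteins) and Soat1 (esterification inside the cell) had means of 29.3, 21 and 7.35 TPM in WAT and 3.37, 1.19 and 0.809 TPM in liver. None of these 4 genes overlapped between liver and WAT libraries. Abca1, the pump that loads cholesterol onto apolipoprotein A-I, measured 50.6, 62.8, 51.6 and 66.1 TPM in WAT and 24.7, 20.6, 24.4 and 23.8 TPM in liver, also with no overlap, but its direction turned with the scaling. Soat2, the esterifying enzyme of hepatocytes, had 14.5 TPM in liver and 1.13 TPM in WAT, and Stard4, a sterol carrier of the cytosol, 31 and 3.82 TPM.

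**Figure D1:**
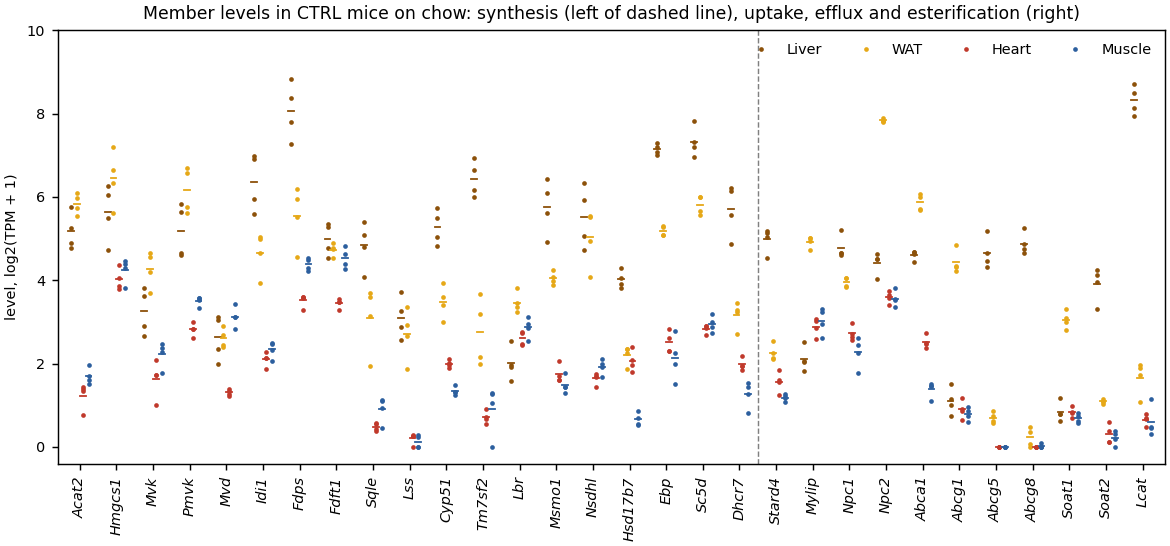
Level of each member in the 4 libraries of CTRL mice on chow, as log2(TPM + 1), by tissue; points are libraries and lines are means. Most synthesis genes are highest in liver, for example Fdps at 154 to 457 TPM, while Npc2, Abcg1, Mylip and Soat1 are highest in WAT.

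Tests of these levels used edgeR's quasi-likelihood test with Benjamini-Hochberg adjustment over 14592 genes and a threshold of 0.05. Between liver and WAT, 23 members were higher in liver (background 37.9% of genes) and 5 lower (35.1%). The median difference was 2.85 on the log2 scale for the 19 synthesis genes and 2.49 for the handling genes, against 0.01 for all genes. Against heart, 26 members were higher in liver (34.6% of genes) and 2 lower (36%), with medians of 4.5 for synthesis and 2.38 for handling genes against -0.03 for all genes. Against muscle, 27 were higher (36%) and 2 lower (36.8%), with medians of 4.36 and 4.04 against -0.02. The handling medians were the same with Abcg5 and Abcg8 at their bounds.

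The scale matters between liver and WAT. TMM scaling, which assumes that most genes do not differ, gave mean log2 scaling factors of -0.5 in liver and 0.78 in WAT. With library totals in place of TMM, the median of all genes was -1.29, 19 members were higher in liver and 8 lower, and the shares of all genes were 12.7% and 71.1%. On that scale the median was 1.52 for the synthesis genes, with 13 higher and 3 lower, and 1.17 for the handling genes, with 6 higher and 5 lower. Acat2 (acetoacetyl-CoA thiolase), Hmgcs1, Mvk, Pmvk (phosphomevalonate kinase) and Abca1 were higher in liver by TMM, by 0.98, 0.77, 0.56, 0.67 and 0.3, and lower by library totals, at -0.36, -0.57, -0.78, -0.68 and -1.02. Their mean TPM was also lower in liver, so no direction between liver and WAT is given for these 5 genes. Mvk and Abca1 did not pass the threshold by TMM, and Acat2 and Hmgcs1 did not by library totals (edgeR adjusted p 0.0773 and 0.0684). The 2 genes lower in liver than in both heart and muscle were Lbr and Mylip.

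The synthesis genes moved together from mouse to mouse in liver and WAT. Within groups, taken as deviations from the group mean of log2 CPM over the 16 libraries of a tissue, the median Pearson r between synthesis genes was 0.71 in liver and 0.76 in WAT, with 86% and 96.5% of pairs above 0. Heart and muscle gave medians of 0.02 and 0.01. Some synthesis genes had few counts there: the heart groups held 7 to 33 counts of Lss, although 1128 to 1264 of Fdft1. The part of low counts in these medians was not tested. Between synthesis genes and all genes the median r was 0 in liver and -0.03 in WAT, and among handling genes it was 0.05 and 0.14. The points share libraries and their depth, genes are not independent, and the values are given as a description. In liver and WAT the synthesis genes also varied more within groups than other genes, with a median SD of 0.49 log2 units in each tissue against 0.28 and 0.25 for all genes.

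The tightest pairs joined distant steps. In liver the highest r was 0.98, between Hmgcs1 and Fdft1 (squalene synthase), and in WAT 0.98, between Cyp51 (lanosterol demethylase) and Dhcr7 (the last reductase of the pathway). Lbr was the synthesis gene least tied to the others, with a median r of -0.2 in liver and 0.16 in WAT. Hsd17b7 and Ebp, of the later sterol steps, had 0.17 and 0.24 in liver but 0.72 and 0.8 in WAT. Tm7sf2, which shares its reaction with Lbr, stood between at 0.54 and 0.4.

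Some handling genes moved with or against the synthesis genes. Npc2 had a median r of 0.61 with them in WAT and 0.08 in liver. Abcg1 ran opposite in WAT at -0.62, and its r with Hmgcs1 was -0.9. Lcat ran opposite in liver at -0.6, and its r with Sc5d was -0.95. Abcg5 and Abcg8 had an r of 0.96 with each other in liver and medians of -0.02 and -0.03 with the synthesis genes. These 2 genes lie head to head on chromosome 17 and share 82 exonic bases on opposite strands, and the counting is not known to use strand, so part of their reads cannot be told apart.

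**Figure D2:**
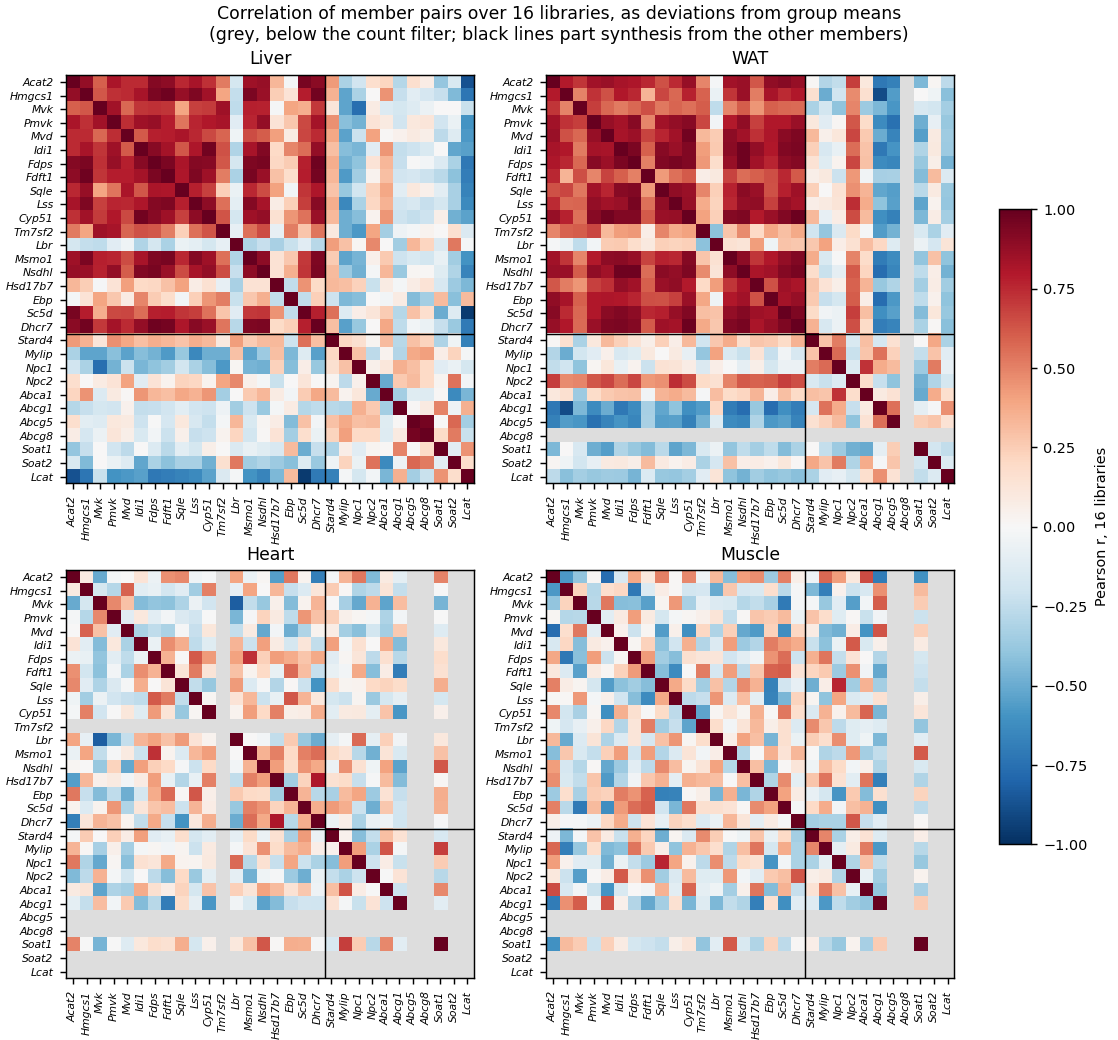
Pearson r between members over the 16 libraries of each tissue, computed on deviations from group means; red is positive, blue negative, grey below the count filter. The block of synthesis genes is red in liver and WAT, with medians of 0.71 and 0.76, and mixed in heart and muscle, with medians of 0.02 and 0.01.

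The mean of the synthesis genes therefore differed between mice of 1 group. As mean log2(TPM + 1) it was 4.95, 4.71, 5.65 and 5.41 in the 4 livers of CTRL on chow and 5.73, 5.61, 5.7 and 5.05 on HSD. In WAT of labelled KO on chow it was 4.71, 4.78, 4.03 and 3.97, and on HSD 4.24, 4.08, 3.95 and 4.78. Replicates 1 and 2 of the former and replicate 4 of the latter were the high libraries. In WAT of CTRL it was 3.82, 4.15, 4.54 and 4.59 on chow and 4.67, 4.93, 4.81 and 4.48 on HSD. Heart and muscle group means lay between 1.92 and 2.34 with SDs of at most 0.09.

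**Figure D3:**
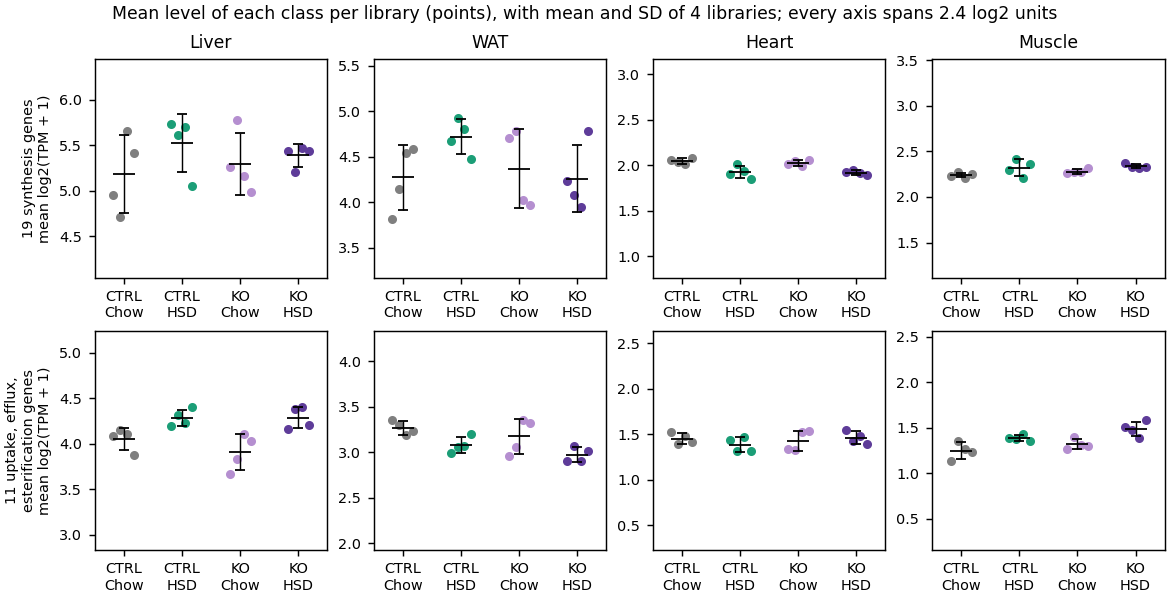
Mean log2(TPM + 1) of the 19 synthesis genes (top) and the 11 handling genes (bottom) in each library, by tissue and group (KO as labelled); bars are mean and SD of 4 libraries and every axis spans 2.4 units. Synthesis means spread over 3.82 to 4.93 in WAT and 4.71 to 5.78 in liver, and far less in heart and muscle.

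In liver of CTRL mice, HSD changed 2 members. Sc5d rose and Lcat fell. The 4 Sc5d values on chow were 124, 145, 224 and 159 TPM and on HSD 301, 333, 316 and 266 TPM, with no overlap. The log2 fold change was 0.87 ± 0.21 (approximate SE, the fold change over the square root of its F value, n = 4) and the adjusted p by edgeR 0.0289. Lcat measured 417, 362, 243 and 282 TPM on chow and 241, 225, 229 and 245 TPM on HSD. The HSD values lay close together, and replicate 4 of HSD overlapped the lowest chow library. Its fold change was -0.57 ± 0.16 with an edgeR adjusted p of 0.0468.

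These were 1 member higher, against a background of 2.48% of 11259 genes, and 1 lower, against 2.19%. Next by p were Mylip at 0.64 ± 0.18 (edgeR adjusted p 0.053), and Acat2 at 0.89 ± 0.26 (0.0634), neither past the threshold. Acat2 measured 26.5, 28.8, 53.1 and 37.2 TPM on chow and 81.4, 82.2, 77.2 and 58.2 TPM on HSD. Its groups did not overlap, and its near-identical copy Acat3 could take some of its reads, which makes its level uncertain. Synthesis genes had a median log2 fold change of 0.11, with 12 of 19 estimates above 0. Handling genes had a median of 0.13, with 8 of 11 above 0, against -0.02 for all genes.

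Both calls depended on single libraries, and that of Lcat also on the test. The Sc5d adjusted p was 0.0599 to 0.082 without CTRL chow replicate 1, 2 or 4 or HSD replicate 2 or 3, and that of Lcat was 0.0649 to 0.127 without each of the 7 libraries other than chow replicate 3. Lcat also missed the threshold by edgeR without the low-count filter (-0.57, adjusted p 0.052) and by limma with either pseudocount (-0.44, adjusted p 0.209 and 0.212). A clock score, the mean level of 6 genes that peak with the light phase's end minus that of 3 that peak opposite, was 2.04 in CTRL liver on chow and -1.09 on HSD. The 8 hepatocyte markers summed to 39100 to 85500 TPM on chow and 89600 to 97000 TPM on HSD. With the clock score as a covariate no member passed, although the estimates were no smaller (0.95, edgeR adjusted p 0.383, for Sc5d and -0.72, 0.328, for Lcat), and the part of the marker sum in these results was not tested.

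In liver of labelled KO mice, 0 of 30 members passed for HSD against chow by edgeR (background 0.00888% of genes). An unadjusted edgeR p below 0.05 was found for 3 members, against 1128 of 11259 genes. DESeq2 called Abcg5 alone and limma 0. Abcg5 had the smallest p, at 1.02 ± 0.26 (edgeR adjusted p 0.164), with 16.7, 16.7, 23.2 and 23.4 TPM on chow and 24.8, 51.5, 45.3 and 54 TPM on HSD, which did not overlap. Abcg8 had 17.4, 17.8, 28.2 and 25.6 TPM on chow and 25.8, 40.6, 40.2 and 47.6 TPM on HSD. Its fold change was 0.69 ± 0.21 (edgeR adjusted p 0.245), and its groups overlapped by 1 library. Ebp and Stard4 followed at -0.25 ± 0.11 and 0.38 ± 0.19. Without HSD replicate 1, Abcg5 and Abcg8 passed. In CTRL the same genes had 0.87 ± 0.26 and 0.66 ± 0.21 (edgeR adjusted p 0.0695 and 0.0832).

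**Figure D4:**
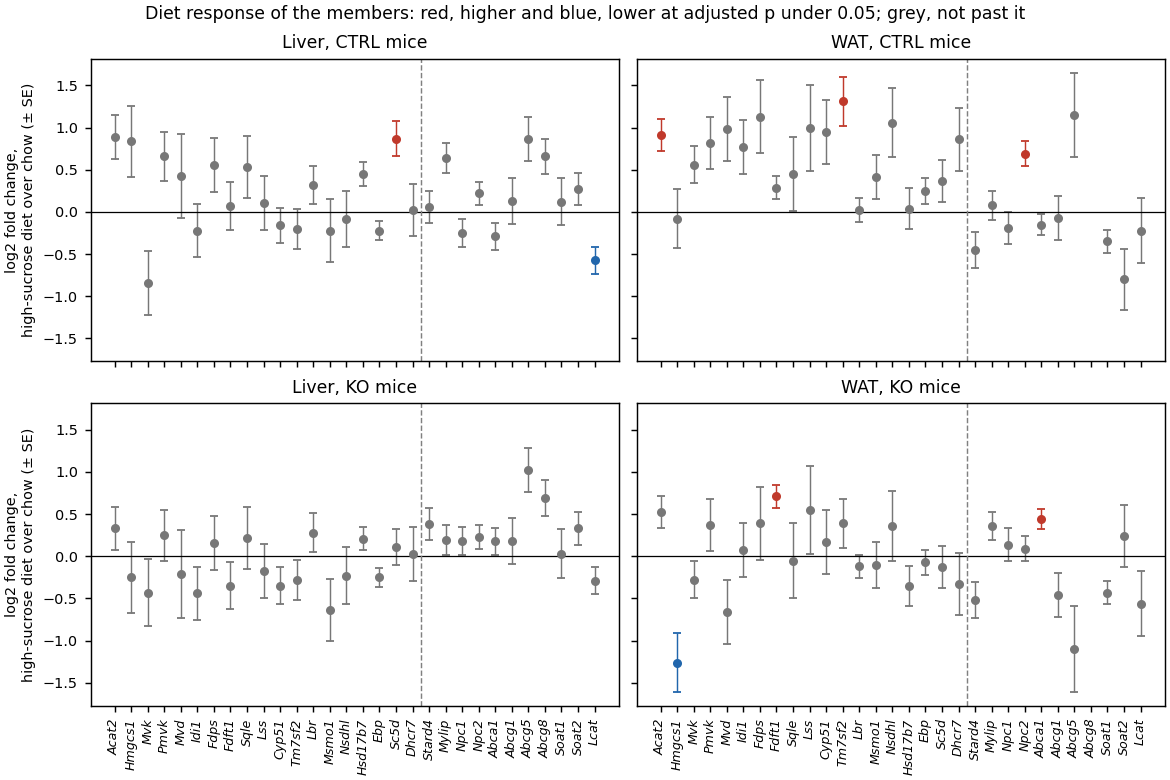
Log2 fold change of each member, HSD over chow, with its approximate SE, in liver (left) and WAT (right) of CTRL (top) and labelled-KO mice (bottom); the dashed line parts synthesis from handling genes. In WAT of CTRL mice 18 of 19 synthesis genes lie above 0, with Acat2 and Tm7sf2 past the threshold.

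In WAT of CTRL mice, HSD raised Acat2, Tm7sf2 and Npc2, and no member fell. Acat2 measured 52.2, 45.8, 61.5 and 67.8 TPM on chow and 89.2, 112, 92.3 and 87.7 TPM on HSD (log2 fold change 0.91 ± 0.19, edgeR adjusted p 0.0198). Tm7sf2 measured 2.96, 3.47, 8.13 and 11.7 TPM on chow and 14.1, 10.9, 12.3 and 10.3 TPM on HSD (1.31 ± 0.29, edgeR adjusted p 0.0228). Npc2 measured 225, 222, 225 and 238 TPM on chow and 305, 380, 309 and 318 TPM on HSD (0.69 ± 0.15, edgeR adjusted p 0.0198). Acat2 and Npc2 did not overlap between diets, whereas chow replicate 4 of Tm7sf2 lay among the HSD values. Tm7sf2 shares 532 exonic bases with Vps51 on the same strand, which makes its level uncertain.

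The 3 rises, from 29 members tested, compare with a background of 1.85% of 13255 genes higher, and the 0 falls with 2.92% lower. Synthesis genes had a median of 0.77 with 18 of 19 estimates above 0, against -0.04 and 45.2% of all genes above 0. Over 16 alternatives the synthesis median was 0.49 to 0.91. By mean TPM, Hmgcs1 (93.5 on chow, 78.3 on HSD), Hsd17b7 (3.66, 3.32) and Lbr (10.2, 8.96) were lower on HSD. The other synthesis genes were higher on HSD by mean TPM. Handling genes had a median of -0.17 with 3 of 10 estimates above 0, and Abcg8 was below the count filter. Soat1 followed by p at -0.35 ± 0.14 (edgeR adjusted p 0.13). Its TPM had no overlap, at 7.49, 7.05, 8.85 and 6.01 on chow and 4.17, 4.32, 3.64 and 3.54 on HSD, and limma on log2(TPM + 1) called it lower.

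None of the 3 calls held in every library set. Without CTRL chow replicate 2 or HSD replicate 1 no member passed by edgeR, without HSD replicate 2 Tm7sf2 alone passed, and without chow replicate 4 Npc2 did not (adjusted p 0.0534 to 0.0621 for Acat2, 0.0593 to 0.0782 for Tm7sf2 and 0.0511 to 0.0606 for Npc2). With the clock score as a covariate no member passed, with 0.78 for Acat2, 1.16 for Tm7sf2 and 0.65 for Npc2 (edgeR adjusted p 0.0516 to 0.061), and the score was 0.48 on chow and -0.46 on HSD. Endothelial markers, 7 genes, summed to 345 to 506 TPM on chow and 241 to 310 TPM on HSD, with 5 of 7 called lower. The 12 macrophage markers summed to 1240 to 1670 TPM on chow and 927 to 1420 TPM on HSD, with 3 of 11 tested called lower and 3 of 11 estimates above 0. The 7 adipocyte markers summed to 35900 to 51000 and 44000 to 53300 TPM, with 1 called higher and 1 lower. In bulk tissue, fewer cells of a type and less RNA per cell cannot be told apart, and the part of these markers in the rises was not tested.

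In WAT of labelled KO mice, HSD raised Fdft1 and Abca1 and lowered Hmgcs1. Fdft1 measured 27.4, 24.8, 22.3 and 21.5 TPM on chow and 33.4, 39.5, 29.9 and 39.9 TPM on HSD, with no overlap (0.71 ± 0.14, edgeR adjusted p 0.00739). Abca1 measured 31.9, 35.5, 41.4 and 35.2 TPM on chow and 41, 45.3, 40.3 and 49.4 TPM on HSD, with chow replicate 3 inside the HSD range (0.44 ± 0.12, edgeR adjusted p 0.0449). Hmgcs1 measured 187, 192, 70.4 and 72.4 TPM on chow and 55.1, 51.4, 47.2 and 56.6 TPM on HSD (-1.26 ± 0.35, edgeR adjusted p 0.046). All 4 HSD values of Hmgcs1 were below the chow values, and chow replicates 1 and 2 stood far above replicates 3 and 4. Those 2 libraries also had clock scores of -1.57 and -1.59, against 0.05 and 0.09 in replicates 3 and 4, and mitochondrial shares of 9.15 and 9.36% of counts, against 7.22 and 6.43%. The part of these values in the Hmgcs1 fall was not tested beyond the alternatives below.

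Hmgcs1 fell while the synthesis genes as a class had a median of -0.05, with 9 of 19 estimates above 0, against 0 for all genes. The 2 rises compare with a background of 2.7% of genes higher and the fall with 3.68% lower. Handling genes had a median of -0.17. Soat1 came next by p at -0.43 ± 0.14 (edgeR adjusted p 0.0695). Fdft1 shares 774 exonic bases with Ctsb on the opposite strand, and Hmgcs1 shares 557 with the antisense gene Gm48342, so their reads may include some of those genes.

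Fdft1 passed without each single library. Hmgcs1 had an edgeR adjusted p of 0.0662 to 0.138 without chow replicate 1 or 2 or any HSD library, and -0.34 (0.589) without both chow replicates 1 and 2, a choice made after seeing the data. Without those 2 libraries the synthesis median was 0.55. Abca1 passed without chow replicate 3 but not without any other single library (0.0555 to 0.132). It also missed the threshold by edgeR without the low-count filter (0.44, adjusted p 0.0569), by edgeR on only the 8 libraries compared (0.43, 0.0545), and by limma with either pseudocount (0.28 and 0.29, adjusted p 0.157 and 0.158). The clock score was -0.76 on chow and 2.77 on HSD, and with it as a covariate no member passed: Fdft1 had 0.74 (edgeR adjusted p 0.96), Abca1 0.32 (0.995), and Hmgcs1 turned to 0.5 (0.995).

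Markers of other cells also differed between diets in WAT of labelled KO. Endothelial markers summed to 419 to 586 TPM on chow and 298 to 329 TPM on HSD, with 2 of 7 called lower. Macrophage markers summed to 1350 to 1840 and 941 to 1410 TPM, with 1 of 11 called lower and 1 of 11 estimates above 0, and the 3 mesothelial markers to 213 to 316 and 71.7 to 162 TPM, with 1 called lower. Adipocyte markers summed to 38500 to 52400 and 48000 to 60100 TPM, with 1 of 7 called lower. Hepatocyte markers summed to 1710 to 2840 and 4190 to 5320 TPM, with 1 of 8 called higher and 1 of 8 estimates above 0. That sum was mostly Cyp2e1, which spanned 1680 to 5280 TPM over the WAT libraries, whereas Alb had a median of 26.8 TPM. The part of these markers in the 3 calls was not tested.

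**Figure D5:**
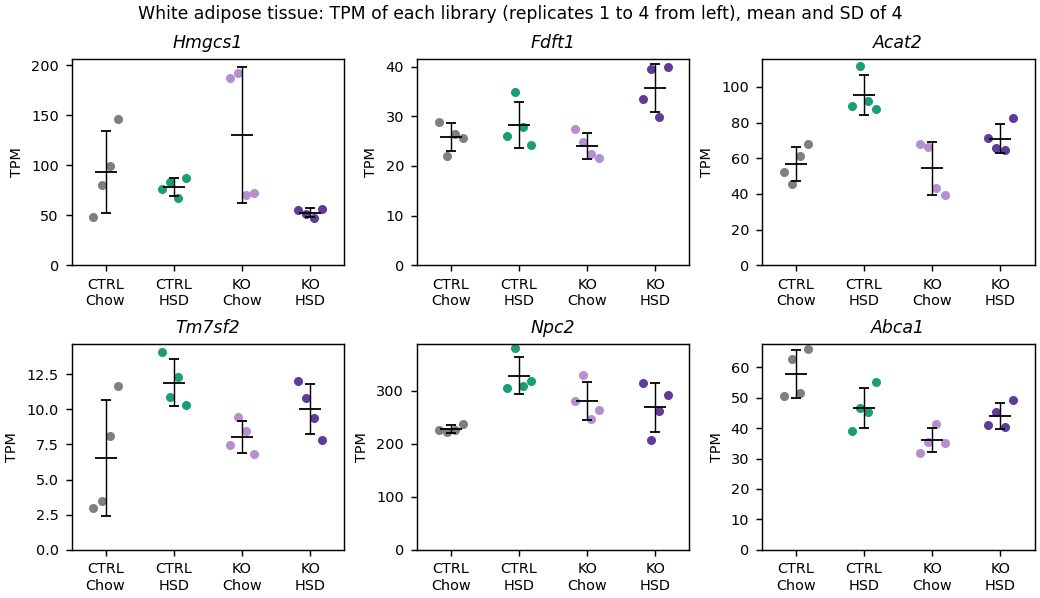
TPM of 6 members in each WAT library by group (KO as labelled), with mean and SD of 4 libraries. Hmgcs1 in labelled KO on chow splits into replicates at 187 and 192 TPM and at 70.4 and 72.4 TPM, and Abca1 in the same group lies below CTRL on chow.

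Genotype on chow changed 1 member in WAT. Abca1 was lower in labelled KO, at 31.9, 35.5, 41.4 and 35.2 TPM against 50.6, 62.8, 51.6 and 66.1 TPM in CTRL, with no overlap (-0.66 ± 0.12, edgeR adjusted p 0.0062). It passed without each single library, but not without both CTRL chow replicates 2 and 4 (-0.49, edgeR adjusted p 0.131), without both labelled-KO chow replicates 1 and 2 (-0.59, 0.104), or with the clock score as a covariate (-0.62, 0.0598). This 1 fall compares with 5.5% of genes lower, and the 0 rises with 1.18% higher. Among the markers, 2 of 8 hepatocyte genes were called higher and 1 lower in labelled KO, 1 of 3 mesothelial genes higher and 1 of 11 macrophage genes lower, and their part in the Abca1 difference was not tested. Soat2, Npc2 and Abcg5 had the next smallest p at -0.85 ± 0.36, 0.34 ± 0.15 and 1.11 ± 0.5. The chow libraries of labelled KO are shared with the HSD comparison above, and the medians were 0.12 for synthesis and 0.02 for handling genes against 0.02 for all genes.

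On HSD, 0 of 29 tested members differed between genotypes in WAT by edgeR (background 0.106%). Of them 5 had an unadjusted edgeR p below 0.05, against 1409 of 13255 genes, and DESeq2 called 0. The synthesis median was -0.48, with 17 of 19 estimates lower in labelled KO, against 0 for all genes. Mvd (mevalonate pyrophosphate decarboxylase) had -0.97 ± 0.38 and Hsd17b7 -0.61 ± 0.24, while Fdft1 had 0.34 ± 0.14 and Soat1 -0.32 ± 0.14. The interaction, the diet response in labelled KO minus that in CTRL, also called 0 by edgeR (background 0.573%), while DESeq2 called Abca1. An unadjusted edgeR p below 0.05 was found for 9 members, against 2448 of 13255 genes. The synthesis median of the interaction was -0.51 with 18 of 19 estimates below 0. Abca1 had 0.58 ± 0.17, Abcg5 -2.26 ± 0.71, Mvd -1.65 ± 0.54 and Npc2 -0.61 ± 0.21 (edgeR adjusted p 0.107 to 0.144). By edgeR, a difference in diet response between the genotypes was therefore not shown for any member.

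In liver, 0 of 30 members differed between genotypes by edgeR on chow (background 0%), on HSD (background 0.0711%) or in the interaction (background 0%). The numbers at an unadjusted edgeR p under 0.05 were 1, 1 and 2 members, against 1377, 660 and 979 of 11259 genes. DESeq2 called 0 members in each. On chow Sc5d had 0.55 ± 0.21, Abca1 -0.31 ± 0.16, Lcat -0.27 ± 0.16 and Mylip 0.3 ± 0.19. On HSD Stard4 had 0.59 ± 0.19 (edgeR adjusted p 0.462), with 41, 44.9, 76.7 and 43.4 TPM in labelled KO and 32.7, 41.3, 34.4 and 30 TPM in CTRL. These overlapped by 1 library, and replicate 3 of labelled KO stood apart. Npc1, Hmgcs1 and Hsd17b7 followed with 0.3 ± 0.17, -0.49 ± 0.42 and -0.16 ± 0.14. In the interaction Sc5d had -0.76 ± 0.29, Abca1 0.47 ± 0.22, Npc1 0.44 ± 0.23 and Hmgcs1 -1.09 ± 0.6. Synthesis medians were 0.12, -0.16 and -0.29 in these 3 comparisons, and handling medians -0.17, -0.07 and 0.06. Fdps and Pmvk lie 34.2 and 308 kb from Pklr on chromosome 3.

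No member passed in heart, where 25 of 30 were tested. The backgrounds were 0.0247% of 12134 genes for HSD in CTRL, 0.14% for HSD in labelled KO, 0% and 0.0412% for genotype on chow and on HSD, and 0.00824% for the interaction. Unadjusted edgeR p was under 0.05 for 3, 4, 0, 2 and 1 members, against 747, 901, 447, 660 and 580 of 12134 genes. DESeq2 called Abca1 for HSD in labelled KO and no other member. Abca1 had 0.46 ± 0.12 in CTRL and 0.49 ± 0.13 in labelled KO for HSD (edgeR adjusted p 0.451 and 0.174). It measured 5.61, 4.16, 4.64 and 4.51 TPM on chow and 6.33, 4.74, 6.64 and 6.16 TPM on HSD in CTRL, and 3.85, 3.94, 5 and 4.22 against 5.08, 5.45, 4.85 and 5.76 TPM in labelled KO. The diets overlapped in both genotypes. Mylip followed at 0.4 ± 0.14 and 0.54 ± 0.14, and Soat1 in CTRL, Stard4 and Abcg1 in labelled KO at -0.59 ± 0.22, -0.48 ± 0.18 and 0.65 ± 0.26. For HSD in CTRL, Lss (lanosterol synthase, at most 0.293 TPM in every heart library) had -2.01 ± 1.02. Between genotypes the smallest p on chow belonged to Idi1, Fdft1, Fdps and Soat1 (-0.3 to 0.21), on HSD to Fdft1 at 0.31 ± 0.09, Soat1 at 0.63 ± 0.22, Lss and Nsdhl, and in the interaction to Soat1 at 0.93 ± 0.31, Abcg1, Hsd17b7 and Lss.

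Muscle also had no member past the threshold, with 26 tested. The backgrounds were 0.091% of 12092 genes for HSD in CTRL, 0.00827% for HSD in labelled KO, and 0% for genotype on chow, genotype on HSD and the interaction. Unadjusted edgeR p was under 0.05 for 2, 6, 3, 2 and 2 members, against 1804, 1014, 1364, 624 and 953 of 12092 genes. DESeq2 called Abca1 for HSD in CTRL and no other member. There Abca1 measured 1.14, 1.77, 1.85 and 1.75 TPM on chow and 2.98, 3.8, 4.24 and 4.55 TPM on HSD, with no overlap (1.19 ± 0.23, edgeR adjusted p 0.0533). It passed by edgeR without chow replicate 3, with only the 8 libraries compared and with the clock score as a covariate. In labelled KO Abca1 had 0.64 ± 0.23, Abcg1 1 ± 0.29, Acat2 0.79 ± 0.24 and Fdft1 0.3 ± 0.12 (edgeR adjusted p 0.245 to 0.492). Idi1 in CTRL had 0.33 ± 0.12, and Dhcr7 and Lss followed. Between genotypes the smallest p belonged to Fdps, Acat2, Lss and Stard4 on chow (-0.27, -0.54, 1.53 and 0.33) and to Abcg1, Idi1, Hmgcs1 and Fdft1 on HSD (0.78, -0.31, 0.28 and 0.21). For the interaction they belonged to Idi1, Abcg1, Fdps and Dhcr7 (-0.41, 0.9, 0.33 and -0.72).

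The diet response of some members differed between liver and other tissues when the difference was tested in a fit of all 64 libraries. In CTRL mice the response in liver was below that in WAT for Tm7sf2 (-1.53 ± 0.42, edgeR adjusted p 0.0178), Mvk (-1.41 ± 0.41, 0.0249) and Cyp51 (-1.12 ± 0.35, 0.0375), and above it for none. The backgrounds were 3.32% of 14592 genes lower and 4.48% higher. Synthesis genes had a median difference of -0.57 and handling genes of 0.19, against 0.01 for all genes. Idi1 (isopentenyl diphosphate isomerase) came next at -0.99 ± 0.36 (edgeR adjusted p 0.0737).

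The opposite ways of Mvk can be read from its values. In liver it measured 6.43, 5.38, 13.1 and 11.3 TPM on chow and 10.4, 5.37, 3.27 and 3.87 TPM on HSD, and in WAT 17.5, 12, 24.1 and 22.4 and then 27, 30.9, 25.4 and 18.7 TPM. Diets overlapped in both tissues, and neither tissue passed by itself (-0.84 ± 0.38 and 0.56 ± 0.22). Cyp51 measured 31.9, 27.4, 51.8 and 44.4 TPM on chow and 40.5, 35.9, 50.2 and 26.4 TPM on HSD in liver, and 6.99, 9.54, 11.1 and 14.2 and then 17.7, 18.4, 21.1 and 14.4 TPM in WAT. In WAT the diets did not overlap for Cyp51, and in liver they did; Cyp51 shares 166 exonic bases with Akap9 on the opposite strand. The Tm7sf2 call was lost without WAT chow replicate 2 (-1.3, edgeR adjusted p 0.0729). Mvk missed the threshold without each of liver chow replicates 3 and 4, liver HSD replicates 3 and 4, WAT chow replicate 2 and WAT HSD replicates 1 and 2 (-1.36 to -1.18, adjusted p 0.0505 to 0.0837). Cyp51 missed it without each of liver chow replicates 3 and 4, liver HSD replicates 2 and 4, WAT chow replicates 1 and 2 and WAT HSD replicates 1, 2 and 3 (-1.13 to -0.93, adjusted p 0.0543 to 0.0961). With only the libraries compared, none of the 3 passed (edgeR adjusted p 0.0789 to 0.118).

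The 4 tissues came from the same 16 mice, but the labels do not tie a number to a mouse. The comparisons between tissues therefore treat libraries as independent, which leaves out the mice that they share. In CTRL mice no member differed in diet response between liver and heart by edgeR (background 1.36%). An unadjusted edgeR p below 0.05 was found for 6 members, against 1916 of 14592 genes. DESeq2 called 0, and library totals in place of TMM called Sc5d. A fit with the title number as a replicate block also called members, as counted in the closing section. Sc5d had 0.87 ± 0.28, Abca1 -0.72 ± 0.24, Soat1 0.74 ± 0.3 and Soat2 1.31 ± 0.59. Between liver and muscle Abca1 differed at -1.43 ± 0.25 (edgeR adjusted p 0.000244), against 1.29% of genes lower, and no member was higher, against 2.38%. Its level in liver was 24.7, 20.6, 24.4 and 23.8 TPM on chow and 17.5, 16.5, 28.9 and 20.2 TPM on HSD, which overlapped, while the muscle values given above did not. The call held in all 23 alternatives run. Sc5d, Hmgcs1 and Mylip followed at 0.91 ± 0.29, 1 ± 0.45 and 0.55 ± 0.26.

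In labelled KO mice the response in liver was above that in WAT for Abcg5 (2.13 ± 0.56, edgeR adjusted p 0.0254) and Stard4 (0.88 ± 0.25, 0.0339) and below it for Fdft1 (-1.09 ± 0.26, 0.0102). The backgrounds were 1.86% higher and 1.95% lower. Abcg5 in WAT was near the limit of detection, with 62 and 29 counts in the groups, at 0.459, 0.707, 1.7 and 1.99 TPM on chow and 0.668, 0.94, 0.207 and 0.34 TPM on HSD. Stard4 measured 38.3, 34.4, 38.3 and 30 TPM on chow and 41, 44.9, 76.7 and 43.4 TPM on HSD in liver, with no overlap, and 3.75, 4.91, 4.01 and 3.58 and then 2.12, 3.48, 1.92 and 3.32 TPM in WAT, also with no overlap. Fdft1 in liver measured 40.1, 66.5, 31.4 and 27.1 TPM on chow and 37.9, 30.5, 37.2 and 39 TPM on HSD, which overlapped.

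With only the libraries compared, none of these 3 passed (edgeR adjusted p 0.0858 to 0.192). Leaving out liver chow replicate 2 ended the Fdft1 call (-0.77, edgeR adjusted p 0.0649). Stard4 missed the threshold without each of liver chow replicates 3 and 4, liver HSD replicate 3, WAT chow replicate 2 and WAT HSD replicates 1 and 3 (0.63 to 0.87, adjusted p 0.0518 to 0.147). Abcg5 missed it without each of WAT chow replicates 3 and 4 and WAT HSD replicates 3 and 4 (1.81 to 2.02, 0.0563 to 0.111). No member differed between liver and heart (background 0.171%) or between liver and muscle (background 0.288%) in labelled KO by edgeR. An unadjusted edgeR p below 0.05 was found for 2 and 3 members, against 1187 and 1544 of 14592 genes, and DESeq2 called 0 members. Stard4, Fdft1, Lcat and Idi1 had the smallest p against heart (0.85, -0.54, -0.91 and -0.77) and Lcat, Fdft1, Stard4 and Abcg1 against muscle (-1.21, -0.67, 0.66 and -0.83).

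Among 42 other genes of the pathway, 12 regulators, 10 of the isoprenoid branch and 20 of other sterol handling, few passed. Alternative fits, the clock covariate and left-out libraries were read for the members only, so calls among these genes were not checked in them. In liver of CTRL mice 3 of 39 tested rose on HSD and 1 fell, against backgrounds of 2.48% of genes higher and 2.19% lower. Insig1 and Insig2, which hold the SREBP escort in the endoplasmic reticulum, rose by 0.98 ± 0.26 and 1.43 ± 0.22 (edgeR adjusted p 0.0428 and 0.00426). Lipa, the lysosomal cholesterol esterase, rose by 0.76 ± 0.14 (0.0109), and Lrp1, a lipoprotein receptor, fell by 0.9 on the log2 scale (0.0196).

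WAT of CTRL mice had 1 of 36 tested higher on HSD, Gramd1b (a sterol transporter of the endoplasmic reticulum, 0.65 ± 0.17, edgeR adjusted p 0.0435), and 2 lower, Lrp1 (-0.48 ± 0.12) and Lipa (-0.36 ± 0.09), against backgrounds of 1.85% higher and 2.92% lower. The response of Lipa was higher in liver than in WAT by 1.12 ± 0.18, and that of Insig2 by 1.49 ± 0.22 (edgeR adjusted p 4.59e-05 and 8.06e-06). Also called in that comparison were Pltp (1.07 ± 0.3), Nus1 (0.52 ± 0.17), Osbp (0.41 ± 0.13) and Coq2 (-0.5 ± 0.15). The backgrounds were 4.48% of genes higher and 3.32% lower. In labelled KO, Nceh1 was above WAT (1.11 ± 0.29) and Acat1 below it (-0.61 ± 0.14), against 1.86% and 1.95% of genes. Calls against heart and muscle are not given here. Srebf2, the gene of SREBP-2 itself, was higher in WAT of labelled KO than of CTRL on chow (0.45 ± 0.13, edgeR adjusted p 0.041). It fell on HSD in labelled KO (-0.48 ± 0.13, 0.0345), where Aacs, which feeds acetoacetate into the pathway, rose (0.85 ± 0.21, 0.0268). These 2 Srebf2 results share the labelled-KO chow libraries, in which replicates 1 and 2 had the high synthesis means. In liver of labelled KO on HSD, between genotypes in liver, and between genotypes in WAT on HSD, 0 of the tested genes passed, nor did any in heart or muscle.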

How the data were processed

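RNA-seq of 64 libraries (4 tissues, 16 groups of 4) was analysed from the tables deposited by the authors. These give estimated counts and TPM per gene, made with kallisto on GRCm38 per the submitters' processing notes; neither the kallisto version nor any use of strand is stated in these sources. Nothing in the labels ties libraries to a culture or batch. Within a tissue, p-values rest on the spread between libraries of different mice, which also holds any difference in sampling or preparation. Between tissues, libraries are treated as independent although the same mice gave all 4 tissues. Estimated counts were rounded, filtered (filterByExpr, minimum count 10) and scaled by TMM, and edgeR's quasi-likelihood test was run in R over all genes, with 16 libraries per tissue or all 64 between tissues, and Benjamini-Hochberg adjustment at 0.05. The approximate SE is the log2 fold change over the square root of F. Members named with full values passed a diet or genotype test or had the highest liver level of their role; the 4 smallest p-values are named for each other comparison. Mvk, Cyp51, Abcg5, Soat1 and some others were given by library after their values were seen. Members and lists were chosen with earlier results of these data known. Scripts were tested on simulated data: of genes changed 2-fold, 62.7% were recovered in liver and 71.6% in WAT for HSD in CTRL. The changed genes were drawn from all genes tested. Synthesis members varied more within groups in these tissues, and recovery was not simulated for them. Alternatives were other scaling, no filter, DESeq2, limma on log2(TPM + 1) or log2(TPM + 0.1), a clock covariate, a replicate block, fewer libraries and each library left out.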

Additional observations from a re-analysis of the deposited data

Results flagged for a closer look

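Of 151 groups of 4 libraries looked at, 11 held a library far from the other 3, where chance gives about 1 in 20. In liver of labelled KO on HSD, replicate 3 stood apart for both Stard4 (76.7 TPM, next 44.9) and Abca1 (26.9 TPM, next 21.6). In WAT, Sc5d was 70.9 TPM in labelled KO on HSD replicate 4 (next 43), the library with the highest synthesis mean of its group, and Lcat was 2.47 TPM in CTRL on HSD replicate 3 (next 1.54). In muscle, Sc5d was 10.5 TPM in labelled KO on HSD replicate 4 (next 7.61), Tm7sf2 3.71 TPM in labelled KO on chow replicate 1 (next 1.48) and Abca1 1.14 TPM in CTRL on chow replicate 1 (next 1.75). In heart, Acat2 was 0.705 TPM in CTRL on chow replicate 4 (next 1.54), Fdps 8.69 TPM in CTRL on chow replicate 3 (next 11), and Stard4 2.02 TPM in labelled KO on chow replicate 4 (next 1.81) and 1.65 TPM in CTRL on HSD replicate 1 (next 1.1).

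The diet response differed between tissues for 7 member and tissue pairs by edgeR's quasi-likelihood test of the difference. In these comparisons 1.29 to 4.48% of 14592 genes were called in each direction. Of the 7 calls, only that of Abca1 held in all 23 alternatives run. In CTRL, liver minus WAT was -1.41 for Mvk, -1.12 for Cyp51 and -1.53 for Tm7sf2, and liver minus muscle was -1.43 for Abca1. In labelled KO, liver minus WAT was -1.09 for Fdft1, 0.88 for Stard4 and 2.13 for Abcg5.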

How the results depend on the processing

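Counts of members passing stayed within 1.5 times in 459 comparisons of a count with an alternative and moved in 61. The share of all genes called by each alternative is not given here. These counts, and the DESeq2 and limma calls above, therefore cannot be read against the edgeR backgrounds. For HSD in CTRL liver (2 members) the count was 1 without the low-count filter, 7 by DESeq2, 4 by limma with either pseudocount, 0 with the clock covariate and 0 without chow replicates 1 and 3. Leaving out each library gave 0 to 5. For HSD in labelled-KO liver (0) DESeq2 gave 1, and leaving out libraries 0 to 2. For HSD in CTRL WAT (3) the clock covariate gave 0, only the 8 libraries compared 5, and leaving out chow replicates 2 and 4 0. Leaving out each library gave 0 to 3. For HSD in labelled-KO WAT (3) no filter gave 1, the clock covariate 0 and only the 8 libraries 1, and single libraries 1 to 3. With the clock covariate Hmgcs1 there turned to 0.5. For genotype on chow in WAT (1) limma on log2(TPM + 1) gave 2, and the clock covariate, leaving out CTRL chow replicates 2 and 4, and leaving out labelled-KO chow replicates 1 and 2 gave 0. DESeq2 gave 1 for the WAT interaction (0 to 1 over single libraries), 1 for HSD in labelled-KO heart and 1 for HSD in CTRL muscle, where the clock covariate and only the 8 libraries also gave 1 (0 to 1 over single libraries).

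Between tissues, the CTRL diet response in liver against WAT (3) had 5 with the title number as replicate block, 0 with only the libraries compared, and 0 to 5 over single libraries. Against heart (0) the block gave 2, library totals 1 and single libraries 0 to 1. Against muscle (1) DESeq2, the block, library totals and only the libraries compared each gave 2, and single libraries 1 to 2. In labelled KO, liver against WAT (3) had 0 with only the libraries compared and 1 to 3 over single libraries, and liver against heart (0) had 1 with library totals. Title numbers are not said to mark a mouse. Same-numbered libraries had a median r of 0.04 to 0.11 between tissues, and 9 to 12 of 16 correlated best with their own number. The match was sought among the 4 libraries of the same group, so this is more often than a random pick would give. Libraries of the same number may therefore share a mouse, which the main fit between tissues leaves out. Within a tissue no paired analysis was possible because the groups share no title number.

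Among named genes and medians, 321 values were scored the same, 96 gene values lost the threshold, 14 medians moved and 1 gene value reversed. A gene value was the same if it kept its direction and side of the threshold. A median was the same if it moved by less than the SD of its class mean, even where its sign changed. The synthesis median for HSD in CTRL liver, 0.11, was as low as -0.09 over single libraries. The cause was not tested. The synthesis median for HSD in labelled-KO WAT was 0.55 without chow replicates 1 and 2 and 0.5 with the clock covariate. With 4 mice a group, 1.5-fold changes are often missed: in data simulated for HSD in CTRL, 16.4% were recovered in liver, 17.9% in WAT, 44.8% in heart and 35.8% in muscle. These shares are for genes drawn from all those tested, not for the members.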
